A study of Mus musculus with 4 samples.

Results

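The cluster of hindbrain neurons that the authors named after its genes *Ankfn1* and *Pou4f1* held 71 nuclei. They were the nuclei that had passed the authors' quality filter and carried this cluster name, out of 12539 neurons and 39461 kept nuclei of the posterior hindbrain, and the cluster ranked 83rd of 134 neuronal clusters by size, whose median was 86.5 nuclei. The other 12468 neurons served as the reference for levels. Because the clusters were built from expression, levels of the cluster against other neurons are descriptions and carry no test, and tests were made only between mouse groups.

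The study profiled single nuclei from a piece of hindbrain with the area postrema and nucleus tractus solitarius (NTS) in 4 libraries, 2 per group, to find hindbrain neurons that respond when AgRP neurons are switched on and POMC neurons switched off by drug-gated receptors. AgRP-Gq;POMC-Gi mice carried AgRP-IRES-Cre+/-, hM3DGq fl/-, POMC-Dre+/- and hM4DGi fl/-, so that Cre placed the activating receptor hM3DGq in AgRP neurons and Dre the inhibiting receptor hM4DGi in POMC neurons. Control mice, labelled WT in the sample names, carried hM3DGq fl/- and hM4DGi fl/- without either recombinase. All mice were adult and of both sexes, and all received clozapine-N-oxide (CNO), the ligand of both receptors, at 3 mg per kg 1 h before the tissue was taken, without food in between. AgRP neurons lie in the hypothalamus and POMC neurons in the hypothalamus and the NTS. Samples within a condition were pooled, with 2 mice per group by the paper's methods. Which mice entered which library is not given in the sources used here. The p-values therefore measure the spread between libraries, in which technical differences and those between mice cannot be told apart.

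*Pou4f1*, also called BRN3A, is a POU-domain transcription factor of sensory ganglia, medial habenula, inferior olive and some dorsal brainstem neurons, where it takes part in fixing neuronal identity. *Ankfn1* encodes a protein with ankyrin repeats and a fibronectin type III domain, needed in the mouse for vestibular function. Dorsal hindbrain neurons are born from progenitor domains that leave a code of transcription factors in the adult cell, with LMX1B and PRRXL1 (DRGX) in excitatory and PAX2, LHX1 and PAX8 in inhibitory lineages, while ZIC factors mark cells of dorsal origin.

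Kept nuclei held 48904976 to 53089402 UMIs per library, and neurons made up 25.4% and 27.2% of kept nuclei in control replicates 1 and 2 and 38.0% and 36.5% in AgRP-Gq;POMC-Gi replicates 1 and 2. AgRP-Gq;POMC-Gi replicate 2 stood apart in *Xist*, an X-linked RNA, with 16.3 counts per 1e6 UMIs (CPM) in other neurons against 319 to 542 in the other 3 libraries. Control replicate 1 was the lowest library in *Uty*, a gene of the Y chromosome, in the neuronal nuclei of the cluster, with UMIs given below. A library of each group thus differed in sex-linked RNA, in opposite directions. The *Ankfn1*/*Pou4f1* cluster had 17, 12, 16 and 26 nuclei in these libraries, the order in which values over libraries are given throughout, with 116126, 78696, 110142 and 192665 UMIs. The median nucleus had 6506 UMIs, with a range from 802 to 17700. No barcode of the cluster occurred among the neurons of another library, whereas over all neurons 40 nuclei had a barcode that recurred in another library.

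The 71 nuclei were of 2 kinds. In 52 nuclei, UMIs over 6 pan-neuronal genes (*Rbfox3*, *Snap25*, *Syt1*, *Map2*, *Nefl* and *Stmn2*) outnumbered those over 6 oligodendrocyte genes (*Mog*, *Mbp*, *Mobp*, *Mag* and *St18* among them), with a median of 14 against 2 and ranges of 1 to 46 and 0 to 7. In the remaining 19 nuclei, 26.8% of the cluster (exact 95% Clopper-Pearson interval 16.9 to 38.6, counting error only), the oligodendrocyte genes led with a median of 42 UMIs and a range of 9 to 59, against a median of 3 and a range of 0 to 8 for the neuronal genes. Both kinds occurred in every library. The 19 nuclei were 6 of 17 and 5 of 12 in the control libraries and 3 of 16 and 5 of 26 in those of AgRP-Gq;POMC-Gi mice. This split was chosen after the values had been seen.

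**Figure D1:**
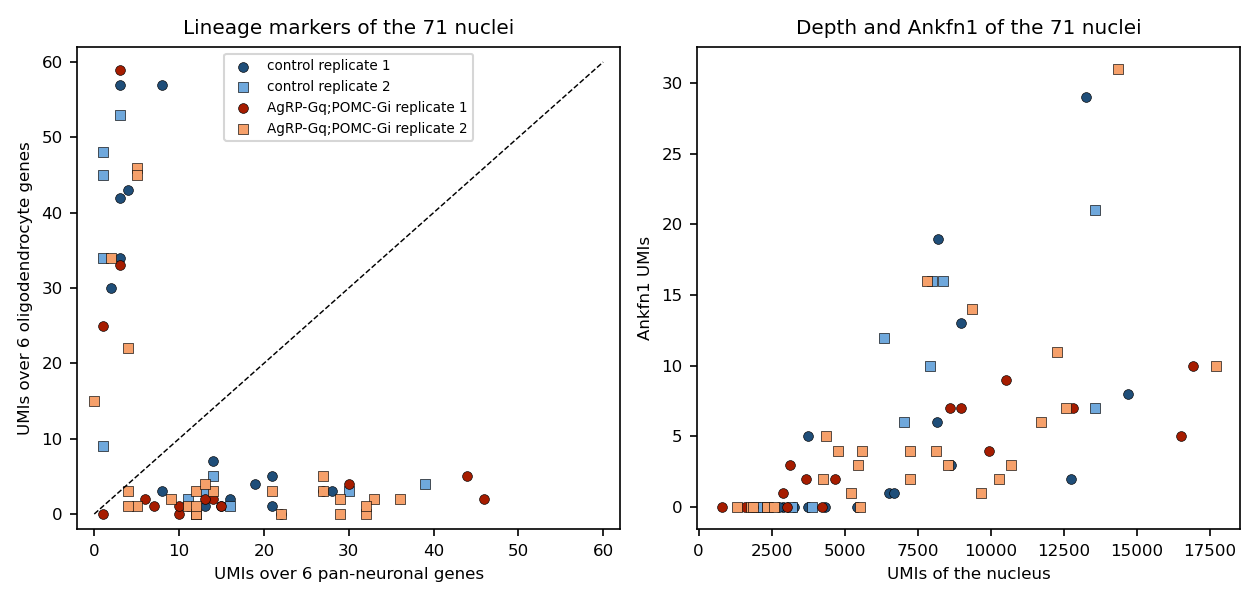
Each point is 1 of the 71 nuclei of the *Ankfn1*/*Pou4f1* cluster, coloured by library. On the left, UMIs over 6 oligodendrocyte genes are plotted against UMIs over 6 pan-neuronal genes, with a dashed line at equality, and the 19 nuclei above the line have at most 8 neuronal UMIs while the 52 below have at most 7 oligodendrocyte UMIs. On the right, *Ankfn1* UMIs are plotted against the UMIs of the nucleus, and the nuclei of lowest depth have none.

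The 19 nuclei did not carry the genes that name the cluster. *Ankfn1* and *Pou4f1* had 0 UMIs in them, where the level of the 52 nuclei would have given 43.5 and 4.1 UMIs at the depth of the 19. *Slit2*, *Cdh18* and *Kcnq5* were also at 0, where 73, 256.1 and 67.3 UMIs would have been reached. For *Pou4f1* the shortfall is near the depth limit, since 0 of 19 nuclei allows a share of up to 15.8% with a UMI, whereas for the other 4 genes it is not. *Prr5l*, a gene of high level in the nuclei annotated as oligodendrocytes and not among the 6 genes that split the cluster, had 160 UMIs in the 19 nuclei, where the oligodendrocyte level would give 144.5, and 0 in the 52. The median depth of the 19 was 2375 UMIs, near the 2460 of 16816 oligodendrocytes, and that of the 52 was 8181.5, near the 8712.5 of other neurons. Over 11295 genes, Pearson's correlation of the log levels of the 19 was 0.794 with oligodendrocytes and 0.423 with other neurons, and that of the 52 was 0.412 and 0.928. These correlations are across genes, which are not independent replicates. The name *Ankfn1*/*Pou4f1* therefore held by these markers for the 52 nuclei, which are described as the neuronal nuclei of the cluster in what follows. The label neuron rests in part on the split itself, which used the 6 pan-neuronal genes. These genes summed to 2114 CPM in the 52 nuclei against 3189 in other neurons, with 0 at least 2-fold higher and 1 lower.

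Nuclei like these 19 were unevenly spread over the neuronal annotation. The *Ankfn1*/*Pou4f1* cluster ranked 3 among 134 clusters by their share, after cluster 179 (*Vmn1r207-ps*/*Pde11a*) with 31 of 33 nuclei and cluster 177 (*Foxp2*/*Ano2*) with 25 of 36, and before clusters 157 (Cnpy1/Adamts18) with 10 of 51 (19.6%) and 80 (*Pdyn*/*Cpa6*) with 21 of 115 (18.3%). The median of the 133 other clusters was 0.885%, 55 of them had none, and over all other neurons 230 of 12468 nuclei (1.84%) met the same rule. Doublets had been called and removed by the authors, and their part in this share was not tested. Of the UMIs of the cluster, the 19 nuclei held 16.4% and 17.6% in the control libraries but 5.88% and 5.14% in those of AgRP-Gq;POMC-Gi mice, so that levels over all 71 nuclei mix both kinds in unequal proportions between groups.

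The genes that set the cluster apart changed with this split. Leading genes were detected in 25% or more of the nuclei and had 4-fold or more the CPM of other neurons, with 5 CPM added to both. Over the 71 nuclei, 40 genes met this, of which 24 were also at least 4-fold higher in oligodendrocytes than in other neurons. Over the 52 nuclei, 32 genes met it, of which 1, *Igsf11*, was so, and 17 genes were on both lists. In the 52 nuclei, *Bdnf* and *Nfib* lay just inside the limit at 4.23-fold and 4.12-fold, and *Nr2f1*, *Rreb1* and *Rmst* just outside at 3.88-fold, 3.81-fold and 3.75-fold.

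*Ankfn1* was detected in 48 of the 52 nuclei, with 0 to 31 UMIs per nucleus and a median of 5. Its level was 896, 1358, 550 and 728 CPM over the libraries, or 883 ± 347 CPM (SD, n = 4 libraries) against 91.4 in other neurons. All 4 libraries lay above the other neurons, and both control libraries above both others. Over all 71 nuclei the level was 769 CPM. The gene did not single out the cluster, since cluster 148 (*Ccdc172*/*Ebf2*) reached 921 CPM and 12 of 133 other clusters reached at least 50% of the level in the 52 nuclei, so the order among the highest was within the spread between libraries. *Ankfn1* lies on chromosome 11 (GRCm38, 89390223 to 89777653, minus strand).

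*Pou4f1* was detected in 26 of the 52 nuclei, with at most 3 UMIs in a nucleus. Its level was 154, 92.6, 28.9 and 60.2 CPM over the libraries, or 84.0 ± 53.7 CPM against 6.49 in other neurons, and over all 71 nuclei it was 72.4 CPM. Of 133 other clusters, 4 were higher, cluster 72 (*Ano2*/*Foxp2*) with 122 CPM and clusters 123 (*Reln*/*Pou4f1*), 80 (*Pdyn*/*Cpa6*) and 154 (*Olfr78*/*Calcr*) with 91.8, 89.5 and 87.5 CPM, all within 1 SD of the cluster. In oligodendrocytes, which should lack the gene, 0.15% of nuclei had a UMI at a median depth of 2460, against 26 of the 52 nuclei at a median depth of 8181.5. When nuclei were thinned to 2000 UMIs, 11.8% of 51 of the neuronal nuclei kept a *Pou4f1* UMI against 0.983% of 12308 other neurons, and 66.7% kept an *Ankfn1* UMI against 12.4%. Of the 26 nuclei with a *Pou4f1* UMI, 25 also had *Ankfn1*, where the product of the shares gives 24.

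*Ankfn1* reached at least 50% of the level of the 52 nuclei in 12 other clusters and *Pou4f1* in 6, and both in 1, cluster 80. The count for both cannot exceed that for either gene, so it does not show that the pair is more particular to the cluster. *D130079A08Rik*, a long non-coding RNA on the same strand just downstream of *Pou4f1* (chromosome 14, 104288431 to 104459336, with *Pou4f1* at 104461676 to 104467999, both minus strand), varied most for its mean among the 25 first leading genes, with 577, 15.4, 164 and 235 CPM over the libraries. Whether reads past the end of *Pou4f1* add to its count was not tested.

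**Figure D2:**
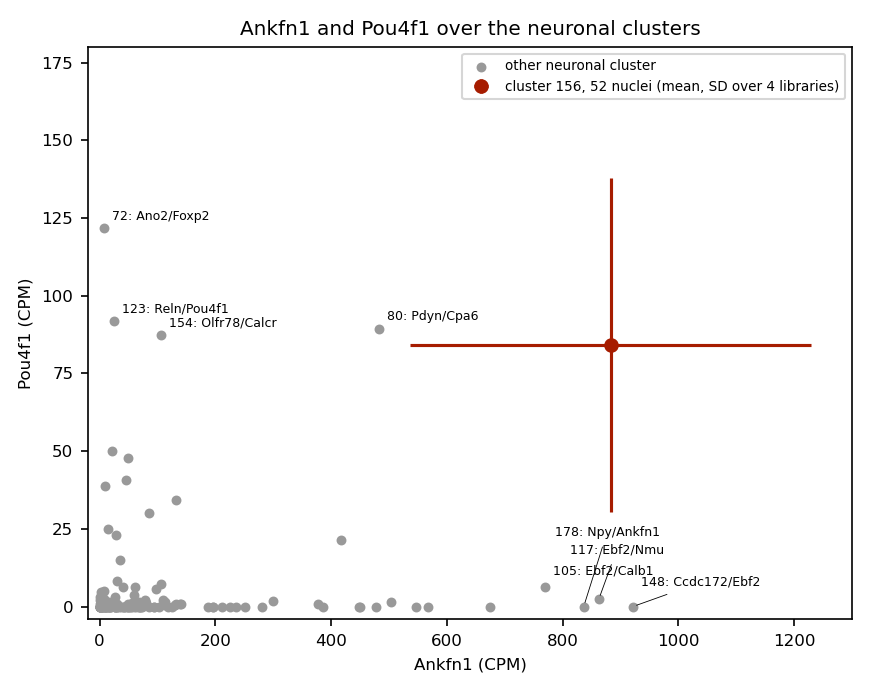
Level of *Pou4f1* (y axis, CPM) against that of *Ankfn1* (x axis, CPM) in each neuronal cluster, as the mean of the libraries. The red point is the 52 neuronal nuclei of the *Ankfn1*/*Pou4f1* cluster with bars of 1 SD over 4 libraries, at 883 and 84.0 CPM, and cluster 80 is the other cluster that is high in both, at 483 and 89.5 CPM.

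*Slit2*, *Adcyap1*, *Pcsk1*, *Wnt4* and *Col18a1* were among the leading genes. *Slit2*, a repellent guidance cue for axons, had 1349, 1420, 1688 and 1466 CPM over the libraries, or 1481 ± 146 CPM against 311 in other neurons. It was detected in 94.2% of the nuclei, and no other cluster was higher, the next being cluster 176 (*Dkk2*/*Col25a1*) with 1165 CPM. *Adcyap1*, which encodes the neuropeptide PACAP, had 82.4, 139, 106 and 142 CPM, or 117 ± 28.5 CPM against 12.3 in other neurons, and was also the highest of all clusters, before cluster 65 (*Eya1*/*Hs3st4*) with 80.4 CPM. *Pcsk1*, a convertase that cleaves prohormones, reached 186 ± 42.2 CPM against 35.1. *Wnt4*, a secreted morphogen, was at 31.1 CPM, and *Col18a1*, the collagen precursor of endostatin, at 114 CPM.

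**Figure D3:**
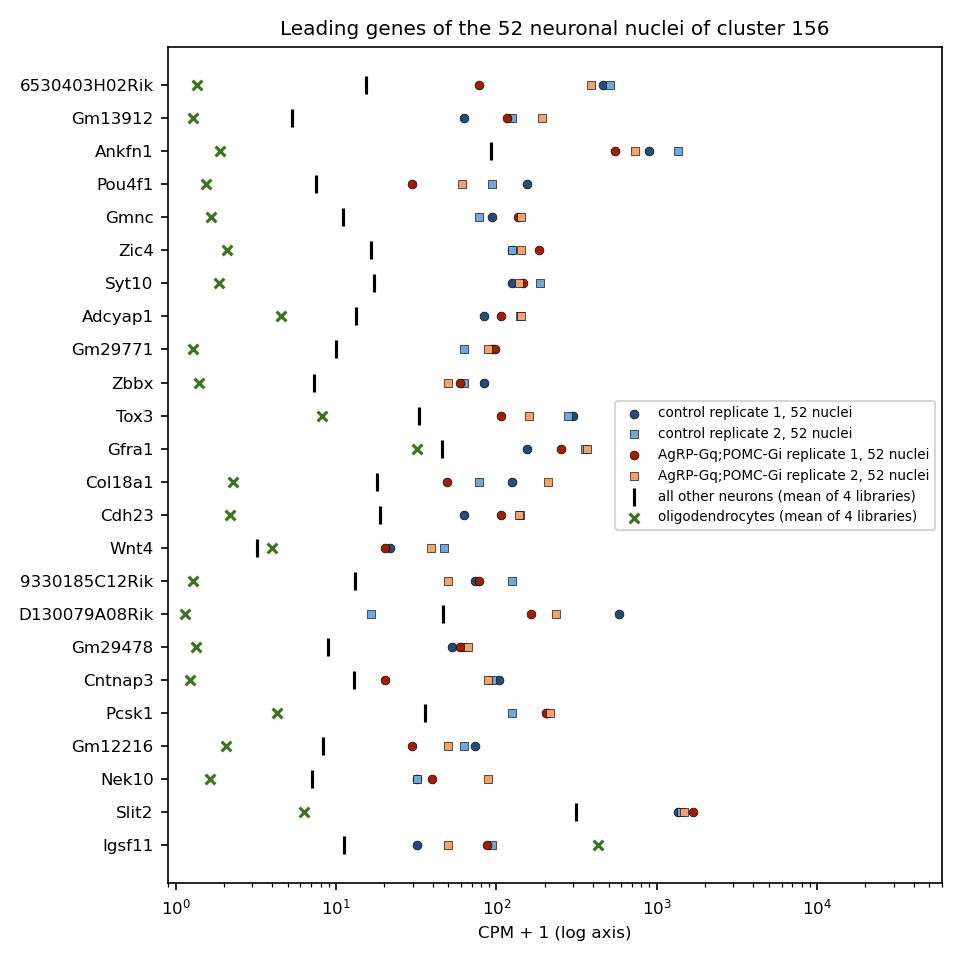
Level of 24 of the 25 first leading genes in the 52 neuronal nuclei of the *Ankfn1*/*Pou4f1* cluster, as CPM plus 1 on a log axis. Coloured points are the 4 libraries, black bars the mean of all other neurons and green crosses the mean of oligodendrocytes, and the libraries lie right of the other neurons for every gene shown but *D130079A08Rik*, which control replicate 2 places left of them.

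*Zic4* and *Tox3*, both transcription factors, were among the leading genes. *Zic4* had 124, 123, 183 and 142 CPM, or 143 ± 28.2 CPM against 15.4 in other neurons, second to cluster 104 (*Gabra6*/*Fat2*) with 157 CPM. *Zic1*, its divergent neighbour on chromosome 9, was at 90.6 ± 48.2 CPM against 22.6, and *Gm29478*, a long non-coding RNA of the same locus, at 59.2 ± 6.0 CPM. The 2 ZIC genes overlap on opposite strands, and what reads from the overlap add to either count was not tested. *Tox3*, an HMG-box factor, was higher than in any other cluster with 210 ± 92.9 CPM against 31.8.

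Of the 15 genes listed as the POU4 family and its sensory partners, 7 reached 10 CPM in the 52 nuclei or in other neurons. *Lmx1b*, *Prrxl1* and *Ebf3* were at least 2-fold higher and *Ebf1* at least 2-fold lower, beside 4.03% and 4.92% of all 11165 genes at that level. *Pou4f1* was at least 2-fold higher too, but it names the cluster, so its high level was set by the choice of cluster. *Lmx1b* had 62.3 ± 26.1 CPM against 15.9, in 20 nuclei of which 16 had a *Pou4f1* UMI too. *Ebf3* was the steadiest of them, with 268, 262, 270 and 263 CPM against 96.3. Neither gene was particular to the cluster, as 18 other clusters were higher in *Lmx1b* and 23 in *Ebf3*. *Ebf1* was uneven, with 51.5, 30.9, 309 and 82.1 CPM against 531. *Isl1*, which accompanies *Pou4f1* in sensory ganglia, had 0 UMIs in the 52 nuclei, a count that allows a share of up to 5.77% of nuclei with a UMI and does not limit the share that express the gene.

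Lists were also fixed for the other places where *Pou4f1* is known. The 8 inferior olive genes summed to 391, 339, 164 and 164 CPM over the libraries, or 265 against 214 in other neurons, and of the 5 that reached 10 CPM 1 was at least 2-fold higher, *Pou4f1* itself, and 1 lower, *Foxp2*. *Foxp2* was at 7.72 CPM against 71.9 in other neurons and came from 1 nucleus, *Htr5b* had 2 UMIs and *Crh* had 0. Of the 11 sensory ganglion genes, 7 had 0 UMIs, and the list summed to 12.7 CPM against 25.2 in other neurons. Of 18 factors of inhibitory and ventral lineages, 15 had 0 UMIs and the list summed to 16.4 CPM against 136. Of 13 cerebellar and precerebellar genes, 8 had 0 UMIs, *Gabra6*, *Neurod1* and *Pax6* among them, and the list summed to 252 CPM against 69.7, with *Zic1* and *Zic4* at least 2-fold higher and *Cbln4* within 2-fold among the 3 that reached 10 CPM. Of 24 genes of dorsal hindbrain excitatory lineages, 11 reached 10 CPM, and the list summed to 962 CPM against 1027. Of the 11, 4 were at least 2-fold higher (36.4%) and 5 lower (45.5%), beside 4.03% and 4.92% of all genes at that level. The higher ones were *Pou4f1*, *Lmx1b*, *Prrxl1* and *Nfib*, of which all but *Nfib* were already counted among the POU4 family and its sensory partners. *Nfib*, a factor of late neuronal differentiation, was at 444 ± 80.9 CPM against 104, while *Zfhx3* was at 100 CPM against 487. Of 39 Hox genes, 13 had a UMI and 1, *Hoxb5*, was at least 2-fold higher, at 48.2 ± 34.2 CPM against 18.4.

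The neuronal nuclei were glutamatergic by the marker rule used. *Slc17a6*, the vesicular glutamate transporter VGLUT2, had 134, 154, 106 and 142 CPM over the libraries from 60 UMIs, and *Slc32a1*, the vesicular transporter of GABA and glycine, had 1 UMI in all. The level of *Slc17a6* was 134 ± 20.5 CPM against 75.8 in other neurons. *Slc17a7* had 2 UMIs and *Slc17a8* had 0. The ratio of *Slc17a6* to *Slc32a1* was 55.6, and over all 71 nuclei it was 12.4, where 4 was required. Of 5 genes of GABA and glycine transmission, 4 were at least 2-fold lower than in other neurons (80%), beside 4.92% of all genes at 10 CPM. Among them were *Slc6a5*, the glycine transporter GLYT2, with 1.37 CPM against 83.5, and *Gad2* with 9.08 CPM against 95.7. Of 11 monoamine genes, 9 had 0 UMIs, *Th* included. *Chat* had 6 UMIs in 3 nuclei.

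Of 32 genes of neuropeptides and BDNF, 3 were at least 2-fold higher than in other neurons, *Adcyap1*, *Bdnf* and *Pdyn*. Of the 13 that reached 10 CPM this was 23.1%, beside 4.03% of all genes at that level. Another 30.8% were at least 2-fold lower, beside 4.92%. *Bdnf*, the neurotrophin, had 41.2, 61.7, 67.5 and 120 CPM, or 72.7 ± 33.7 CPM against 13.4 in other neurons, second among the clusters to 1 with 80.6 CPM, a difference within the spread. *Pdyn*, the dynorphin precursor, was at 26.0 ± 10.5 CPM against 1.98, second to cluster 80 with 89.6 CPM, and rested on 13 UMIs in 8 nuclei. *Cartpt*, *Gal*, *Nppc* and *Sst* were at least 2-fold lower. The remaining 25 genes lay within 2-fold or below 10 CPM.

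Among 58 receptors for peptides and metabolic hormones, 22 reached 10 CPM. Of these, 3 were at least 2-fold higher (13.6%) and 2 lower (9.09%), beside 4.03% and 4.92% of all genes at that level. *Tacr1*, the substance P receptor, was among the higher ones, with 124, 30.9, 67.5 and 60.2 CPM against 18.7 in other neurons. *Ramp2*, a partner of the calcitonin receptor family, was higher than in any other cluster with 19.1 CPM, but from 8 UMIs. *Lepr*, the leptin receptor, was at 33.1 ± 8.69 CPM against 17.7. *Glp1r* and *Mc4r* had 0 UMIs, against 2.33 and 2.23 CPM in other neurons, levels at which 0 UMIs cannot be told apart from no difference at this depth.

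Of 49 receptor genes for acetylcholine and amines, 15 reached 10 CPM. Of these, 5 were at least 2-fold higher (33.3%), 3 lower (20%) and the rest within 2-fold, beside 4.03% higher and 4.92% lower among all genes at that level. *Chrm3*, a Gq-coupled muscarinic receptor, had 762, 1373, 608 and 1138 CPM, or 970 ± 349 CPM against 351, while *Chrm2*, a Gi-coupled one, had 56.6 ± 24.8 CPM against 261. *Htr1b*, a Gi-coupled serotonin receptor, was at 32.3 ± 11.1 CPM against 7.66. Of 26 glutamate receptor genes, 22 reached 10 CPM. Of these, 0 were at least 2-fold higher and 5 lower (22.7%), among them *Grik2* with 662 ± 113 CPM against 1518. Of 25 GABA and glycine receptor genes, 17 reached 10 CPM. Of these, 0 were at least 2-fold higher and 3 lower (17.6%), *Gabrb2* and *Glra1* among them.

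Most ion channel genes lay within 2-fold of other neurons, but a smaller share than of all genes. Of 49 potassium channel genes at 10 CPM, 7 were at least 2-fold higher (14.3%) and 5 lower (10.2%). Of 35 sodium, calcium and HCN channel genes 5 were higher (14.3%) and 3 lower (8.57%), beside 4.03% and 4.92% of all genes at 10 CPM. *Kcnq5*, a subunit of the M-current channel, was at 1365 ± 301 CPM against 529. *Cacng5*, an AMPA receptor auxiliary subunit, was at 49.9 ± 30.3 CPM against 7.72. *Cacna2d3*, an auxiliary calcium channel subunit, was at 69.97 ± 18.3 CPM against 528, while its relative *Cacna2d1* was at 1130 CPM against 504. Of 138 adhesion and guidance genes, 103 reached 10 CPM, of which 11 were at least 2-fold higher (10.7%) and 13 lower (12.6%). *Lrrtm4*, a postsynaptic adhesion protein, had 8258 ± 816 CPM against 3114 and was present in all 52 nuclei. *Nrxn3* was at 767 ± 213 CPM against 4362, and *Dcc*, the netrin receptor, at 257 ± 61.7 CPM against 1306.

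Over 10327 genes centred across clusters, the profile was most like cluster 80 (*Pdyn*/*Cpa6*), with Pearson's r of 0.439 for the 52 and 0.455 for the 71 nuclei, followed by clusters 105 (*Ebf2*/*Calb1*) with 0.306 and 65 with 0.290 for the 52. These r values are over genes of pooled libraries, and serve to choose neighbours. Cluster 80 shared *Pou4f1*, *Ankfn1*, *6530403H02Rik* with 252 CPM against 360 in the 52 nuclei, *Tox3* with 154 against 210 and *Slit2* with 703 against 1481. It also held *Lmx1b* with 74.8 CPM against 62.3, *Ebf3* with 218 against 266, *Nfib* with 656 against 444 and *D130079A08Rik* with 528 against 248. It did not share *Zic4*, with 23.3 CPM against 143, or *Gm13912*, a non-coding RNA on chromosome 2, with 22.6 against 123. The levels of cluster 80 are over all its 115 nuclei, of which 21 were rich in oligodendrocyte genes, and no test was made between clusters.

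The share of neurons in the cluster was compared between groups. It was 0.688%, 0.439%, 0.433% and 0.715% over the libraries, so the groups overlapped. The means were 0.563% ± 0.177 and 0.574% ± 0.199 (SD, n = 2), with an exact two-sided permutation p of 1, in a design whose smallest p is 0.3333. For the 52 neuronal nuclei they were 0.351% ± 0.134 and 0.465% ± 0.160 (exact permutation p = 0.667). Leaving out control replicate 2 or AgRP-Gq;POMC-Gi replicate 2 turned the difference over all 71 nuclei from 0.0105 to -0.114 and -0.131 percentage points.

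Between groups, 23 of 11269 genes tested over the 71 nuclei passed an adjusted p of 0.05 in edgeR's quasi-likelihood test on sums per library (0.204%), 8 higher (0.071%) and 15 lower (0.133%) in AgRP-Gq;POMC-Gi mice. At an unadjusted p under 0.05 there were 648 genes in edgeR (5.75%) and 65 in DESeq2, and DESeq2 called 0 after adjustment. The lower genes were mostly genes of the 19 nuclei. Of the 15, 13 had over 50% of their UMIs in the 19 nuclei and were at least 4-fold higher in oligodendrocytes than in other neurons, and the shares over the 15 ran from 14.5% to 100% with a median of 79.3%, where the 19 held 9.91% of all UMIs. Of the 8 higher genes, none had more than 3.19% there. Of the 13 lower genes that could be tested over the 52 neuronal nuclei, 10 kept a negative log2 fold change, and 2 were called lower.

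*Neat1*, a nuclear non-coding RNA, had 362, 623, 109 and 98.6 CPM over the libraries in the 71 nuclei (log2 fold change -2.14, SE 0.35, edgeR adjusted p = 5.4e-06), without overlap, as in 17.4% of all genes tested, and 96.7% of its UMIs lay in the 19. It was the only 1 of the 23 genes called without each library in turn. In the 52 nuclei it had 4 UMIs in all. *Prr5l*, with 543, 546, 218 and 155.7 CPM (-1.51, SE 0.32, edgeR adjusted p = 0.00293), had every UMI in the 19, and its call was lost without control replicate 1 or either AgRP-Gq;POMC-Gi library (adjusted p = 0.0549 to 0.46). *Mobp*, of the 6 oligodendrocyte genes, had a log2 fold change of -1.71 (SE 0.42, edgeR adjusted p = 0.025), a call lost without any single library (adjusted p = 0.179 to 0.539). Of the 6 genes, 2 were called lower, beside 0.133% of all genes tested, and all 6 were lower at an unadjusted p under 0.05, beside 2.84%. The summed level of the 6 over the 71 nuclei was 2532, 2630, 1271 and 1033 CPM over the libraries. No comparison of these 6 genes is drawn from the 52 nuclei, which were chosen by them.

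**Figure D4:**
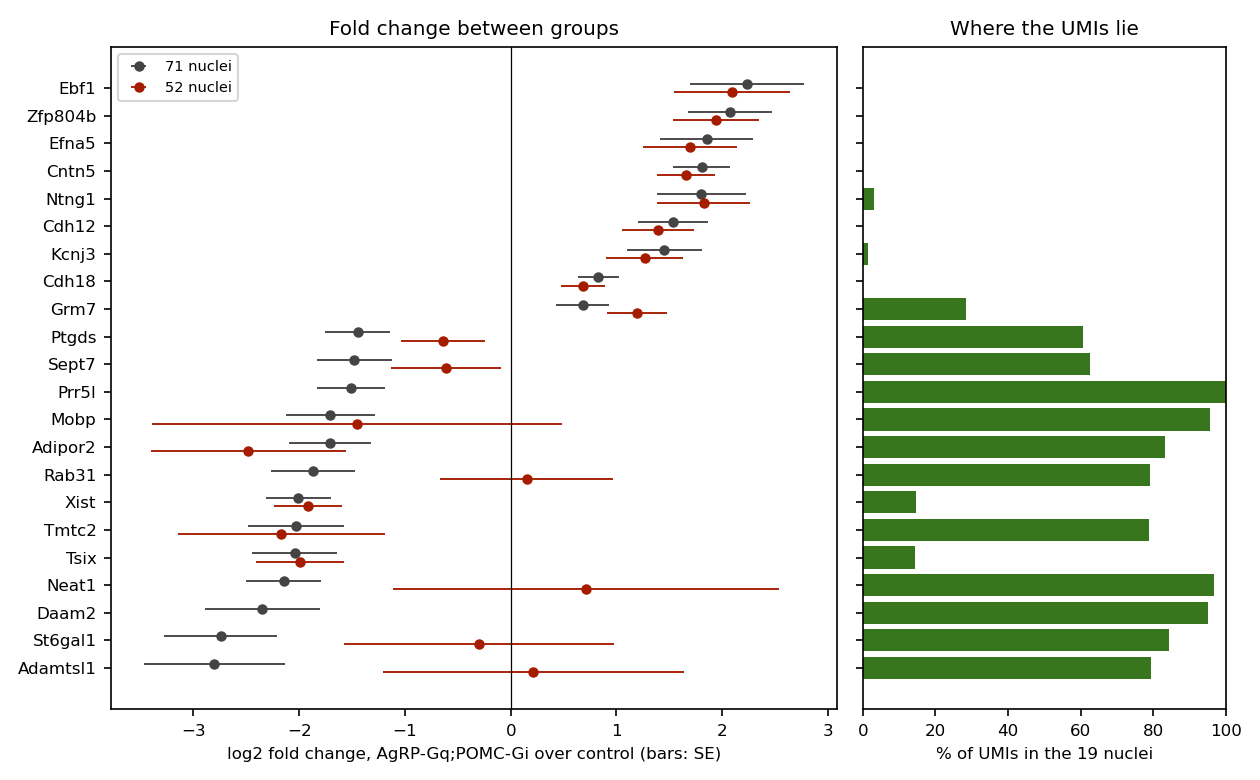
Log2 fold change of AgRP-Gq;POMC-Gi over control with its SE for 22 of the 24 genes called over the 71 or the 52 nuclei of the *Ankfn1*/*Pou4f1* cluster (left, grey 71 and red 52 nuclei), and the percent of each gene's UMIs that lay in the 19 nuclei rich in oligodendrocyte genes (right). The higher genes stay above 0 in the 52 nuclei. *Neat1*, *Rab31* and *Adamtsl1* pass from below to above 0, and the other lower genes tested there stay below 0. *Prr5l* and *Daam2* had too few nuclei with a UMI to be tested there.

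When the test was run on the 52 neuronal nuclei, an alternative chosen after seeing the data, 5 of 11756 genes passed (0.0425%), 3 higher (0.0255%) and 2 lower (0.017%), and 448 had an unadjusted p under 0.05 (3.81%). With DESeq2 the counts were 0 and 20. The median log2 fold change of all genes was 0.13 in this set. Of the 5, *Cntn5*, *Zfp804b*, *Xist* and *Tsix* had been called over the 71 nuclei, and 0 of the 5 were called without each library in turn. A stricter set of 32 nuclei with at most 2 oligodendrocyte UMIs gave 2 calls, *Unc5d* with 0, 0, 47 and 5 UMIs and *Cntn4* with 1, 0, 22 and 41 UMIs over the libraries.

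*Cntn5*, a contactin of the immunoglobulin superfamily that links neurites, had 690, 170, 839 and 1811 CPM over the libraries in the 52 nuclei, so the groups did not overlap, as in 16.5% of all genes tested. The log2 fold change was 1.65 (SE 0.28, edgeR adjusted p = 1.23e-05), and the difference from the effect in other neurons, which had 1210 to 1311 CPM in all libraries, was 1.58 (SE 0.32, edgeR adjusted p = 0.00837). Of its 331 UMIs in AgRP-Gq;POMC-Gi replicate 2, 131 came from 1 nucleus. The call in the 52 nuclei was lost without control replicate 2 (adjusted p = 0.595) or AgRP-Gq;POMC-Gi replicate 2 (0.982), and that over the 71 without AgRP-Gq;POMC-Gi replicate 2 (0.511). Without these libraries the difference from other neurons in the 52 nuclei was 0.89 (edgeR adjusted p = 0.989) and 0.83 (0.999), so that this call was lost too.

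*Zfp804b*, a zinc-finger gene, had 17, 0, 63 and 33 UMIs over the 52 nuclei (log2 fold change 1.94, SE 0.41, edgeR adjusted p = 0.00618). Of the 33 UMIs in AgRP-Gq;POMC-Gi replicate 2, 26 lay in 1 nucleus, and the call was lost without control replicate 2 (adjusted p = 0.989) or AgRP-Gq;POMC-Gi replicate 1 (0.991). *Grm7*, a presynaptic metabotropic glutamate receptor, had 742, 139, 926 and 1089 CPM (1.19, SE 0.28, edgeR adjusted p = 0.049), and its call was lost without any library but control replicate 1 (adjusted p = 0.682 to 0.989). In all 3 of these genes control replicate 2 was the lowest library, and it held 7 of the 52 nuclei.

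*Xist* and *Tsix*, the transcripts of the X-inactivation centre, fell by 1.92 and 1.99 on the log2 scale in the 52 nuclei (edgeR adjusted p = 1.23e-05 and 0.00618). With the replicate number as a block, *Tsix* lost its call (edgeR adjusted p = 0.647) and *Xist* kept it (0.000302). *Xist* had 127, 12, 48 and 0 UMIs, so that AgRP-Gq;POMC-Gi replicate 1 lay between the control libraries, and *Uty*, a gene of the Y chromosome, had 0, 10, 13 and 40 UMIs. Without control replicate 1 the change of *Xist* was 0.23 and that of *Tsix* 0.79, and neither passed when AgRP-Gq;POMC-Gi replicate 2 was left out (adjusted p = 0.982). The effect on *Xist* was not called as different from that in other neurons, which had 503, 319, 542 and 16.3 CPM. Sex-linked RNA differed between the libraries within each group. The sex of the mice in each library is not given, and its part in these changes was not tested.

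**Figure D5:**
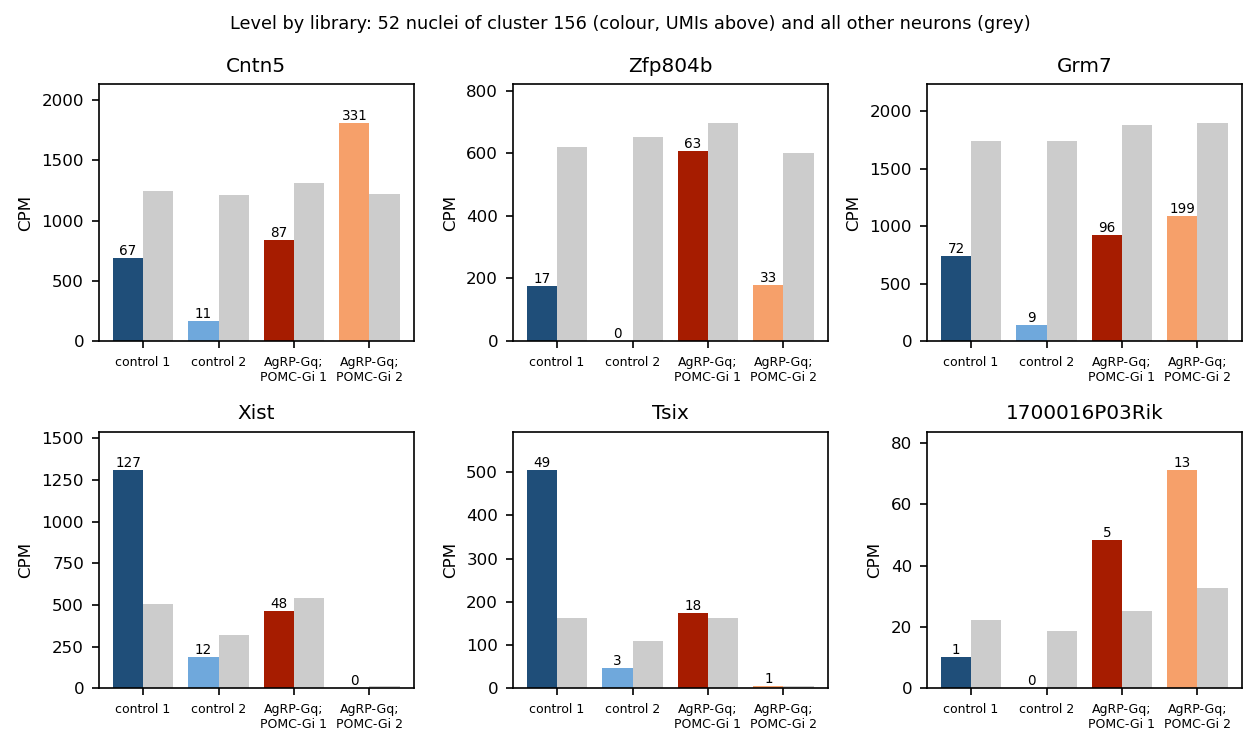
Level in CPM of 6 genes in each library, in the 52 neuronal nuclei of the *Ankfn1*/*Pou4f1* cluster (coloured bars, with UMIs above) and in all other neurons (grey bars). *Cntn5*, *Zfp804b*, *Grm7*, *Xist* and *Tsix* are the genes called in the 52 nuclei, and *1700016P03Rik* is the immediate early gene with the largest rise, not called; the grey bars of *Cntn5*, *Zfp804b* and *Grm7* are level over the libraries while the coloured ones are not.

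Of 103 adhesion and guidance genes tested over the 71 nuclei, 5 were called higher in AgRP-Gq;POMC-Gi mice and 0 lower, beside 0.071% and 0.133% of all genes tested, with a median log2 fold change of 0.21 beside 0.03, and no enrichment was tested. They were *Cntn5*, *Cdh12*, *Cdh18*, *Ntng1* and *Efna5*. *Cdh12*, a cadherin, had 224, 127, 663 and 384 CPM (log2 fold change 1.54, SE 0.33, edgeR adjusted p = 0.00378), and *Ntng1*, a netrin-related anchor protein, 68.9, 88.9, 263 and 260 CPM (1.80, SE 0.42, edgeR adjusted p = 0.0134). In both, every AgRP-Gq;POMC-Gi library lay above every control library, as in 17.6% of all genes tested, but the call for *Cdh12* was lost without control replicate 2 (adjusted p = 0.236) or AgRP-Gq;POMC-Gi replicate 1 (0.556) and that for *Ntng1* without any single library (0.0892 to 0.334). The call for *Cdh18* was lost without control replicate 2 (0.39) or AgRP-Gq;POMC-Gi replicate 1 (0.983), and that for *Efna5* without any library but control replicate 2 (0.135 to 0.625). In the 52 nuclei the edgeR adjusted p of *Cdh12* and *Ntng1* was 0.0536 for each, and 1 gene of the list was called, *Cntn5*. The median log2 fold change of the list was 0.19 there, beside 0.13 for all genes tested. *Zfp804b* (log2 fold change 2.07, edgeR adjusted p = 0.000534), *Ebf1* and *Kcnj3* were the other genes called higher over the 71 nuclei. *Ebf1*, a transcription factor of the COE family, and *Kcnj3*, the channel subunit GIRK1, had log2 fold changes of 2.23 and 1.45 (edgeR adjusted p = 0.0217 and 0.0246). Both calls were lost without control replicate 1, control replicate 2 or AgRP-Gq;POMC-Gi replicate 1 (adjusted p = 0.0655 to 0.983), and that of *Kcnj3* also without AgRP-Gq;POMC-Gi replicate 2 (0.135).

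The change between groups differed from that in all other neurons in 8 genes over the 71 nuclei by the interaction term in edgeR. The log2 fold change was more positive in the cluster in 2 (0.0177%) and more negative in 6 (0.0532%). Over the 52 nuclei it differed in 1 gene (0.00851%), *Cntn5*. DESeq2 called 0 in both, with 195 and 144 at an unadjusted p under 0.05.

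The genes that mark the cluster were not called between groups. Of the 25 leading genes of the 52 nuclei, 0 passed in edgeR, with 1 higher and 4 lower at an unadjusted p under 0.05, beside 2.48% and 1.33% of all genes tested, and a median log2 fold change of 0.27. *Ankfn1* and *Pou4f1* were among the 4, with log2 fold changes of -0.69 (SE 0.27) and -1.30 (SE 0.55) and an edgeR adjusted p of 0.99 for both. In both genes the control libraries lay above the others, as in 16.5% of all genes tested. *Adcyap1* and *Slc17a6* had log2 fold changes of 0.36 and -0.06.

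The study used 10 immediate early genes (IEGs), which neurons transcribe within minutes of strong activation, to find activated clusters. Over the 71 nuclei 6 of them and over the 52 nuclei 7 had enough nuclei to be tested, and 0 were called, with 1 and 2 at an unadjusted p under 0.05 in edgeR, beside 5.75% and 3.81% of all genes tested, and 0 in DESeq2. *1700016P03Rik*, a non-coding RNA that the study counts among these genes, had 1, 0, 5 and 13 UMIs over the 52 nuclei, in 1, 0, 3 and 7 nuclei, with a log2 fold change of 3.20 (SE 1.10, edgeR adjusted p = 0.94). *Nr4a3*, a nuclear receptor, went the other way with 5, 1, 0 and 0 UMIs. *Fos* had 1, 0, 1 and 4 UMIs, and *Homer1* 7, 1, 7 and 19. *Gem* and *Jun* had 0 UMIs. At these counts a change in activity was neither shown nor shown to be absent.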

How the data were processed

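Nuclear RNA of posterior hindbrain was profiled in 4 libraries with the 10x Genomics 3′ kit. The authors mapped reads and made the deposited UMI counts with Cell Ranger 7.0.0 on GRCm38 (mm10) and used Seurat 4.3.0, per the submitters' notes. The authors' table of nuclei gives the mitochondrial percent that they deposited per nucleus, with quality flag, cluster and cell type. Its columns of an IEG score per cluster are the authors' comparison and were not used. They kept nuclei from 800 UMIs and 500 genes upwards with mitochondrial RNA of 10% or less, removed doublets at an assumed rate of 0.02, and clustered with scVI and the Louvain method without IEGs.

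From the counts, UMIs were summed per library over the nuclei of the cluster, all other neurons and oligodendrocytes, and divided by the summed UMIs to give CPM, shown as mean ± SD of 4 libraries. Tests between groups used R 4.3.3 and edgeR 4.0.16 (quasi-likelihood test with TMM factors) for all genes detected in 5% or more of the nuclei, with Benjamini-Hochberg adjustment at 0.05. The study's own mixed model over nuclei, nebula, was not used here. A difference from other neurons was the interaction term in a fit with the library as a block. Alternatives were DESeq2, other filters, library size alone, the replicate number as a block, each library left out, and subsets of nuclei. Scripts were tested on simulated data. Tables used Python 3.11.15, numpy 2.4.6, pandas 2.3.3 and scipy 1.17.1.

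The cluster and the gene lists were chosen with earlier results of these data known, and the split into 52 and 19 nuclei after seeing these values. Genes named are members of the lists, the 25 genes of largest and 10 of smallest fold against other neurons, genes past the threshold up to 20 or the 10 of smallest p, and genes that the most similar clusters share or lack. *Rmst*, *Nr2f1* and *Rreb1* are named as the values next to a limit, and *Cntn4* as a call of a small set. Gene positions are from GENCODE M21 on GRCm38. Some genes are not reported here by name, but stay in every fit and count. The strand of reads is that of a 3′ kit, but genes that overlap on the same strand can still share reads.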

Additional observations from a re-analysis of the deposited data

Results flagged for a closer look

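The change between groups differed between the *Ankfn1*/*Pou4f1* cluster and all other neurons in 8 of 11269 genes (0.071%) by the interaction term in edgeR over the 71 nuclei. The log2 fold change was more positive in the cluster in 2 and more negative in 6. DESeq2 called 0, with 195 at an unadjusted p under 0.05. The more positive ones were *Cntn5*, by 1.74 (SE 0.30, edgeR adjusted p = 6.57e-05), and *Zfp804b*, by 1.95 (edgeR adjusted p = 0.00485). The more negative ones included *Tmtc2* by -2.13, *Neat1* by -2.02, *Adamtsl1* by -3.12, *St6gal1* by -2.65 and *Zeb2* by -1.23. From 48.1% (*Zeb2*) to 96.7% (*Neat1*) of the UMIs of the 6 genes lay in the 19 nuclei rich in oligodendrocyte genes, which held 9.91% of all UMIs of the cluster and a larger share in the control libraries. In the 52 neuronal nuclei, 1 gene was called (0.00851%), *Cntn5* by 1.58 (edgeR adjusted p = 0.00837), *Zfp804b* had an adjusted p of 0.138, and the other 6 had an adjusted p of 0.999 or 1. Each of the 7 genes named lost this call when at least 1 library was left out. Over the 71 nuclei *Cntn5* was lost without control replicate 2 (1.04, edgeR adjusted p = 0.597) or AgRP-Gq;POMC-Gi replicate 2 (0.98, adjusted p = 0.753), and *Zfp804b* without control replicate 2 (adjusted p = 0.964) or AgRP-Gq;POMC-Gi replicate 1 (adjusted p = 1). *Neat1* was lost without control replicate 2 or AgRP-Gq;POMC-Gi replicate 2 (adjusted p = 0.337 and 0.082), *Tmtc2* without any library but control replicate 2, *Adamtsl1* without any but control replicate 1, and *St6gal1* and *Zeb2* without any 1 of the 4.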

How the results depend on the processing

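Of the values that answer a comparison, 65 kept their direction and their side of the criterion under the alternatives, counts within 1.5 times, 30 moved and 2 reversed. The 65 are not a measure of stability. They include IEG counts of 0, which could not move where 0 IEGs were tested. They also include 32 leading genes in the 52 nuclei beside 40, of which only 17 were shared, and a share difference of 0.151 beside 0.0105. The count of genes that differed between groups, 23, was 0 with DESeq2, 0 of 2441 genes with filterByExpr (222 at an unadjusted p under 0.05), 2 in the 32 nuclei with at most 2 oligodendrocyte UMIs, and 6 to 17 with a library left out. In the 52 nuclei it was 5, with DESeq2 0 and with a library left out 3 to 8. It was 32 without TMM factors, with 9 higher and 23 lower. The count against other neurons, 8, was 0 with DESeq2, 0 with filterByExpr, 0 over genes in at least 20% of nuclei, and 2 to 7 with a library left out. In the 52 nuclei it was 1, with DESeq2 0 (144 at an unadjusted p under 0.05) and with a library left out 1 to 5. No IEG that could be tested was called by edgeR or DESeq2 under these settings, but filterByExpr left 0 IEGs to test and the limit of 20% of nuclei left 1. With the replicate number as a block 21 genes were called over the 71 and 4 over the 52 nuclei, and the calls of *Tsix* (edgeR adjusted p = 0.0983 over the 71 and 0.647 over the 52 nuclei), *Daam2* (0.0814) and *Mobp* (0.0541) were lost. Same-numbered libraries deviated together by a correlation of 0.011 and 0.0081, and the labels name no shared batch. No block was run for the count against other neurons, which already holds the library as a block. The cause of these shifts was not tested.

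Leading genes over the 71 nuclei, 40, were 20 with 20 CPM added, 88 at 10% of nuclei, 182 at 2-fold, 69 against the median cluster and 73 by the mean over nuclei. The difference in share reversed to -0.114 and -0.131 without control replicate 2 and AgRP-Gq;POMC-Gi replicate 2. Among single genes, the log2 fold change reversed in the 52 nuclei for *Neat1* (0.72), *Rab31* (0.15) and *Adamtsl1* (0.22), and against other neurons for *Neat1* (0.97) and *Adamtsl1* (0.0016). It reversed in the 32 nuclei for *St6gal1* (0.63) and *Adamtsl1* (3.58). With a library left out the change of *Tsix* ran from -5.55 to 0.62 over the 71 nuclei, and without control replicate 1 it was 0.23 for *Xist* and 0.79 for *Tsix* over the 52 nuclei. Transmitter class, most similar cluster and the levels of *Ankfn1* and *Pou4f1* kept their call or stayed within 1 SD under the alternatives run, though the transmitter ratio, 12.4, ran from 5.32 to 55.6. IEGs had 0 to 19 UMIs per library.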

Other observations

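Other activity genes outside the study's list were partly high in the 52 neuronal nuclei. Of 16 such genes, 4 reached 10 CPM and 2, *Bdnf* and *Pcsk1*, were at least 2-fold higher than in other neurons (50%), beside 4.03% of all genes at that level. Both were leading genes already named. Between groups, 0 of 6 tested differed in edgeR, with 0 at an unadjusted p under 0.05. *Adra1b*, the alpha-1B adrenergic receptor, had 1, 1, 15 and 12 UMIs over the libraries, with a log2 fold change of 2.96 (SE 0.84, edgeR adjusted p = 0.387). These UMIs are not scaled to depth, so they are not comparable with its level in other neurons, 17.2 to 21.7 CPM. *Adra1b* was chosen after its values were seen. Calcium-binding proteins were uneven, with *Hpcal1* at 111 CPM against 29.8 and *Necab1* at 235 CPM against 92.0, and *Pvalb* at 5.09 CPM against 21.1.

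Of the lists of other cell types, astrocyte genes summed to less in the 52 nuclei than in other neurons, with 36.0 CPM against 66.9. The others, apart from the oligodendrocyte genes that chose these nuclei, summed to more on the mean of the libraries. Microglial genes summed to 178 against 155, oligodendrocyte precursor genes to 69.3 against 28.8 and vessel genes to 31.4 against 18.9. Fibroblast genes summed to 12.9 against 6.29, and ependyma and choroid plexus genes to 474 against 407. All but the oligodendrocyte precursor genes fell below other neurons in at least 1 library. Fibroblast sums were 0, 46.3, 0 and 5.47 CPM over the libraries, so that only control replicate 2 lay above other neurons. *Ttr*, a choroid plexus gene, had 0, 1018, 19.3 and 826 CPM, was detected in 53.8% of these nuclei, in 52.4% of other neurons and in 48.6% of oligodendrocytes. The 3 shares were alike, and the level was highest in both libraries numbered 2.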
